A study of Mus musculus with 5 samples.

Results

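Solute carriers are membrane proteins that move nutrients, ions, metals and metabolites across the plasma membrane and the membranes of organelles. Their expression was followed here in mouse common myeloid progenitors transformed by the leukaemia gene MN1, with and without the histone methyltransferase gene Mll1 (Kmt2a). The genes were taken by name and by level: a symbol that starts with Slc and a digit, and at least 1 FPKM in 2 or more of the 5 libraries. FPKM are fragment counts scaled for gene length and for library size. Of 344 rows with such a symbol, 7 were left out by the rule (Slc40a1, Slc11a1, Slc11a2, Slc25a37, Slc4a1, Slc18a2 and Slc2a1), 174 stayed below the level, and 163 remained of the 11780 genes tested. Expression at this level is therefore how the genes were chosen and not a result.

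All 5 libraries came from C57Bl/6 cells that carried floxed Mll1 alleles, had been transformed with the retroviral vector MSCV-MN1-IRES-GFP and were grown in M3234 medium with FBS, IL3, IL6 and SCF. The 3 control libraries were from MLL1 flox/flox cells that received a control vector, and the 2 knockout libraries from cells that received Cre and are labelled MLL1 -/-. All cells were sorted on day 7. No Cre-treated cells with wild type Mll1 were analysed here, so exposure to Cre and loss of Mll1 cannot be told apart. Whether each library had its own mouse or culture is not stated in the labels; p-values thus reflect only how these samples varied, possibly for technical reasons.

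Each solute carrier family is numbered, and the members of a family usually share a type of substrate. Families SLC1, SLC7 and SLC38 carry amino acids into the cell, SLC3 proteins are the heavy chains that bring several SLC7 transporters to the surface, SLC30 and SLC39 move zinc out of and into the cytosol, and SLC25 is the large family of the mitochondrial inner membrane. Transporters of amino acids are known to respond to amino acid supply through the transcription factor ATF4, and proliferating blood progenitors depend on them for growth.

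The targeted gene was lower in the knockout libraries but not absent. Mll1 stood at 9.67, 7.28 and 7.19 FPKM with the control vector and at 6.22 and 5.32 FPKM with Cre (exact two-sided permutation test p = 0.1, the smallest that 10 splits allow). It was not called in the fit used for all genes (log2 change -0.41 ± 0.16, SE, limma adjusted p = 0.158). The labels do not name the floxed exons, and a gene-wide FPKM can miss a deletion of a few exons. Genes of mature neutrophils stood apart in control replicate 1: the summed FPKM of the 11 markers found was 6452 there, 792 and 1054 in the other controls, and 22430 and 20700 with Cre, and 1 of 10 tested markers (Lcn2) rose. S100a8 and S100a9 made up most of these sums; Ngp, Camp, Ltf and Chi3l3 were higher in control replicate 1 than with Cre, and Mmp8 was lowest in control replicate 1. The 9 mast cell and basophil markers summed to 590, 867 and 776 FPKM with the control vector and 1250 and 1268 FPKM with Cre. Cpa3, not called, made up most of that sum, at 432, 633 and 581 against 950 and 965 FPKM (limma adjusted p = 0.0581). Mcpt8, Il1rl1 and Gata2 rose, while Cma1 and Tpsb2 were not called. Ms4a2 was level (28.3 and 28.3 FPKM), and Fcer1a and Prss34 were under 1 FPKM in every library. The 9 monocyte and macrophage markers summed to 268, 101 and 81.3 FPKM with the control vector and to 306 and 268 FPKM with Cre, with C1qa, C1qb and Cx3cr1 under 1 FPKM in every library. Most of that sum was Ly6c2 with Cre (267 and 225 FPKM), while Ccr2, the one called marker of 4 tested, fell from 17.5 ± 1.64 to 6.26 ± 0.463 FPKM (adjusted p = 0.00852); the lymphoid markers Cd3e and Cd79a were under 1 FPKM throughout. Gata2 is also on the list of progenitor markers. Of 7 tested there 3 rose (Gata2, Mpo and Fcgr3), and Kit, Myb and Cebpa were not called. Cd34 fell from 624 ± 53.2 to 214 ± 3.42 FPKM (limma adjusted p = 0.00657). In bulk samples a shift in the share of a cell type and a change of RNA per cell cannot be told apart. The part of these markers in the results below was not tested.

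Among the 163 solute carrier genes, 7 rose and 16 fell in the knockout libraries (limma, adjusted p under 0.05), and 140 were not called. That is 4.29% and 9.82% of them, beside 3.82% and 5.97% of all 11780 genes tested. The median log2 change of the 163 was -0.04 and that of all genes -0.03. Both knockout values lay above all controls in 40 of them (24.5%, beside 22.9% of all genes) and below all controls in 50 (30.7%, beside 29.4%). A mean over the libraries of more than 100 FPKM was seen in 9 of the 163 genes, and 82 had a mean under 10 FPKM. Called genes came from 15 of 39 families. All 23 had knockout values outside the range of the controls, which a call from so few libraries nearly requires, so this adds no support. Without control replicate 1, which stood apart in several transporters, 21 rose and 38 fell. These were 12.9% and 23.3% of the 163, beside 11.9% and 18% of all genes. All 23 genes called with every library were among them. So were Slc7a3, Slc18a1 and Slc27a2, which reached the level through controls alone. The filter itself favoured a fall in these 3, so their calls are no support. After median-ratio scaling 10 rose and 15 fell (5% and 5.12% of all genes), and after quantile normalization 6 and 11 (4.4% and 4.79%). A fit without knockout replicate 1 or without knockout replicate 2 rests on 1 knockout library, and almost no gene of any kind was called there. These fits therefore cannot decide calls among the 163. Without control replicate 2, 1 rose and 2 fell (0.382% and 0.56% of all genes), and without control replicate 3, 1 and 5 (0.594% and 1.14% of all genes).

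**Figure D1:**
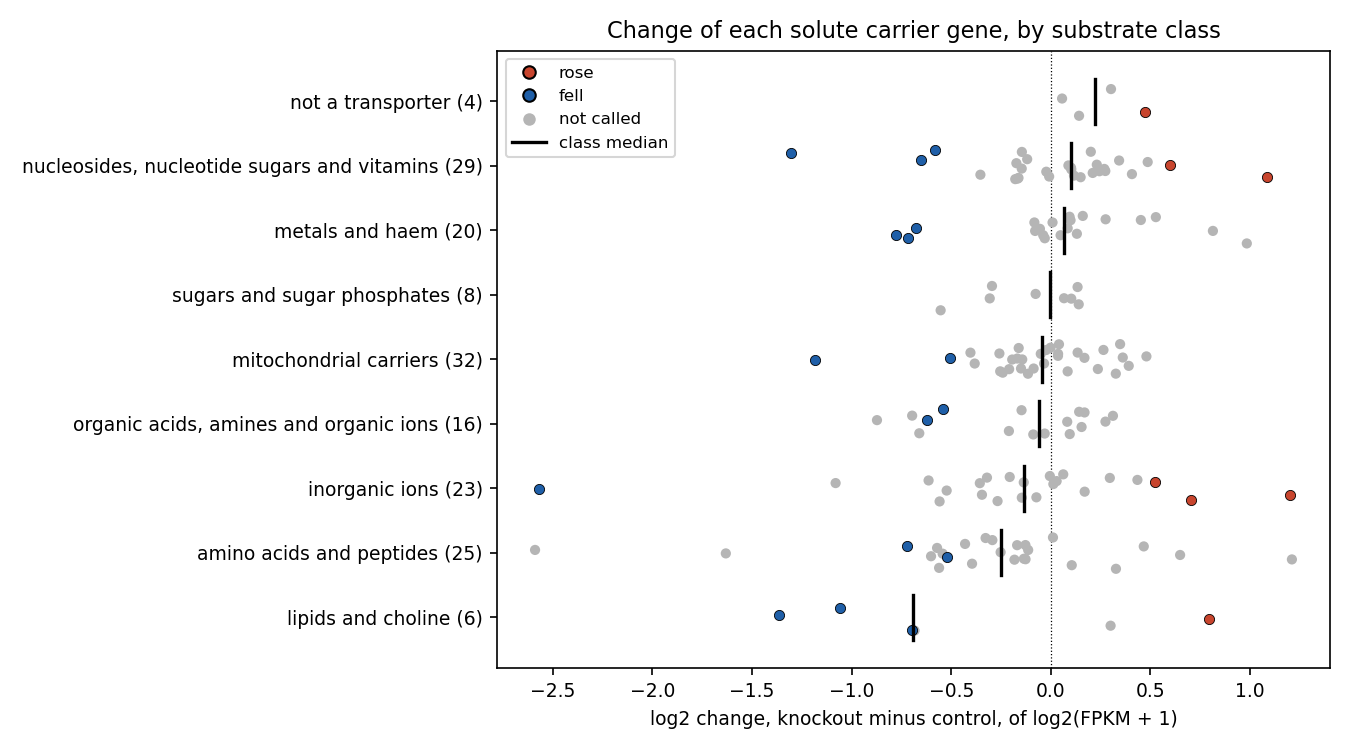
Log2 change (x axis, from log2(FPKM + 1), positive where the knockouts are higher) of the 163 genes by substrate class (y axis, number of genes in brackets); each point is a gene, red rose, blue fell, grey was not called, and bars are class medians. Called genes lie on both sides of 0, and the class medians run from -0.69 for lipids and choline to 0.22 for the prefix-bearing genes that are no transporters.

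**Figure D2:**
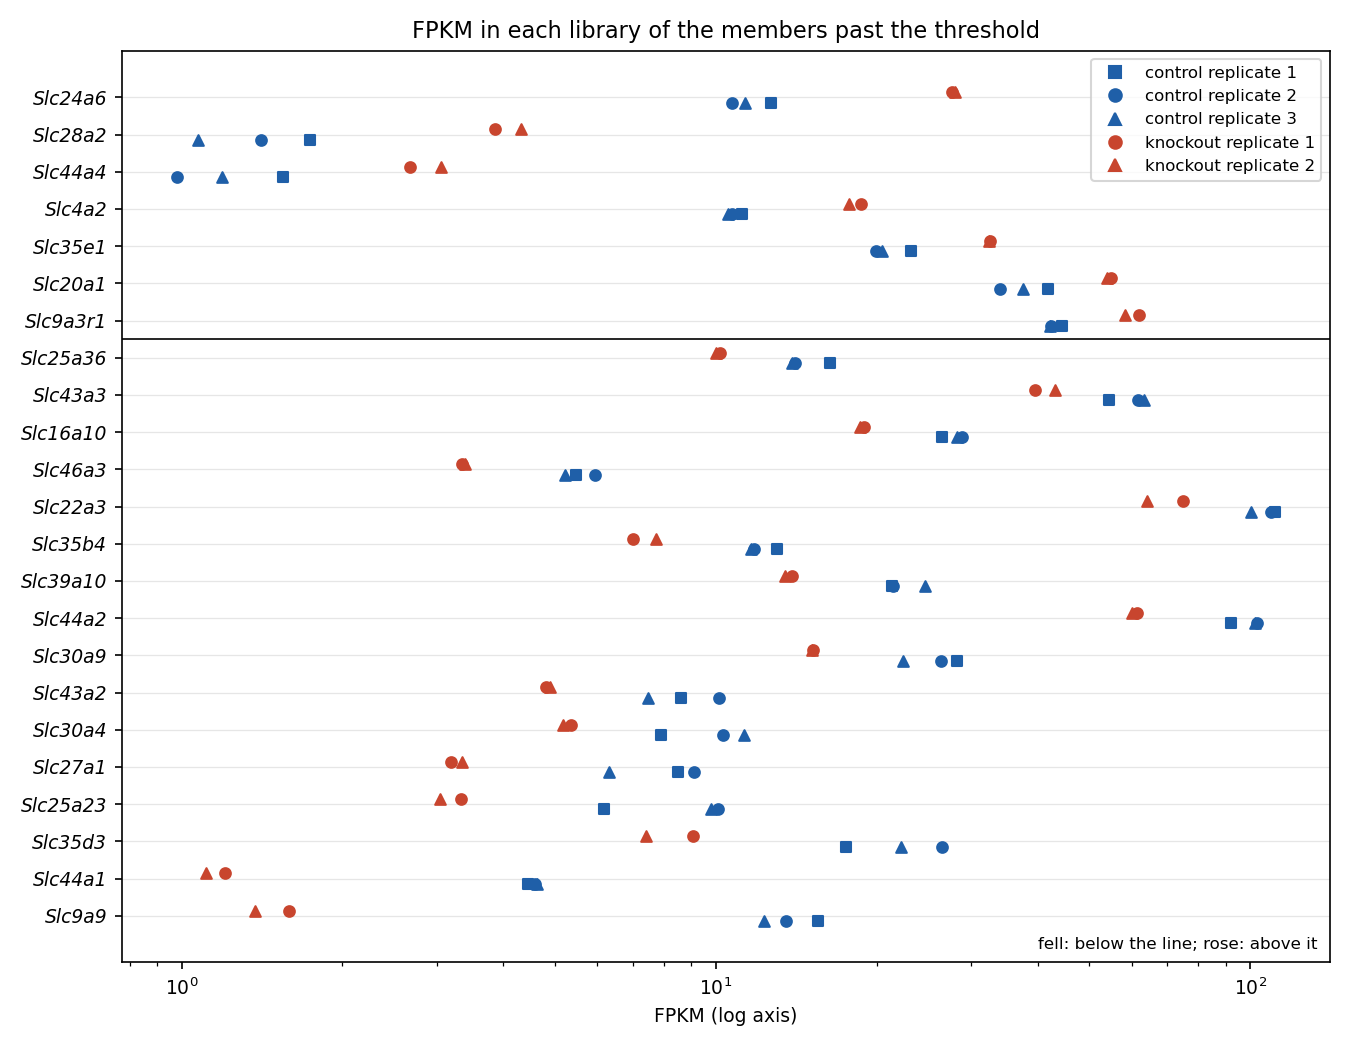
FPKM (log axis) of the 23 called genes in each of the 3 control (blue) and 2 knockout (red) libraries, ordered by log2 change; markers stand for replicates. In every gene the 2 knockout values lie outside the range of the 3 controls, as a call nearly requires, with the widest gap in Slc9a9.

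Among amino acid and peptide transporters 2 genes were called, and in 8 others control replicate 1 stood apart from the other controls. Of 25 genes, 2 fell (8%) and none rose, beside 5.97% and 3.82% of all genes. Their median log2 change was -0.25, and 19 of the 25 had a change below 0. Both called genes belong to family SLC43. Slc43a2, the LAT4 transporter of branched-chain amino acids and methionine, stood at 8.59, 10.1 and 7.47 FPKM with the control vector and at 4.81 and 4.89 FPKM with Cre, a log2 change of -0.72 ± 0.14 (SE; limma adjusted p = 0.0409). Slc43a3, which takes up purine nucleobases rather than amino acids, fell from 59.7 ± 4.71 (SD, n = 3) to 41.3 ± 2.55 FPKM (SD, n = 2; adjusted p = 0.0403). Their relative Slc43a1 (LAT3) had knockout values of 8.57 and 9.19 FPKM, below each of its controls (13.7 ± 2.35 FPKM), with an adjusted p of 0.0879.

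The most abundant amino acid transporters were not called. Slc3a2, the heavy chain known as 4F2hc or CD98, stood at 202, 373 and 369 FPKM with the control vector and at 258 and 281 FPKM with Cre. Its light chain Slc7a5 (LAT1), which imports leucine and other large neutral amino acids, had 105, 279 and 250 FPKM with the control vector and 153 and 156 FPKM with Cre. In both genes the knockouts lay between control replicate 1 and the other controls. The glutamine transporters Slc1a5 (92.8, 169 and 144 against 98.6 and 101 FPKM) and Slc38a2 (76.3, 111 and 104 against 76.2 and 80.1 FPKM) also had their lowest control in replicate 1. Slc38a1, another glutamine transporter, varied less, at 97.5 ± 8.77 and 89.0 ± 2.87 FPKM. The 6 genes of family SLC38 all had log2 changes below 0, from -0.54 to -0.11, and none was called. Slc6a6, the taurine transporter, stood at 59.9 ± 3.72 and 64.6 ± 5.97 FPKM (adjusted p = 0.519).

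Several transporters were far lower in control replicate 1 than in the other controls. Among the 163 genes, 11 had a control replicate 1 that differed from the mean of control replicates 2 and 3 by at least 1 on the log2(FPKM + 1) scale (6.75%, beside 5.01% of all genes), and 8 of these 11 were amino acid or peptide transporters. These genes were picked by this difference after the values were seen, so it is a description. Slc7a3, a carrier of arginine and lysine, stood at 0.460 FPKM in control replicate 1, at 27.6 and 19.8 FPKM in the other controls, and at 0.609 and 0.561 FPKM with Cre. The control with the low value thus lay at the level of the knockouts, and the gene was not called (log2 change -2.59 ± 1.35, SE; adjusted p = 0.268).

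The alanine, serine and cysteine transporter Slc1a4 also had a low control replicate 1, at 3.73, 17.8 and 13.2 FPKM against 2.69 and 2.30 FPKM. Both of its knockout values lay below every control (log2 change -1.63 ± 0.61, SE; adjusted p = 0.154). Slc6a9, the glycine transporter GlyT1, stood at 3.43, 17.04 and 12.9 FPKM with the control vector and at 5.90 and 5.75 FPKM with Cre. Slc38a7, a glutamine transporter of lysosomes, stood at 3.79, 9.58 and 8.83 against 4.48 and 4.40 FPKM. Slc7a7, which exports basic amino acids in exchange for neutral ones, stood at 0.877, 2.88 and 2.68 against 1.08 and 0.951 FPKM. In these genes the knockouts lay nearer to control replicate 1 than to the other controls.

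Slc7a11 departed from that order. It encodes the cystine importer xCT, which supplies cysteine for glutathione, and stood at 4.14, 16.5 and 17.96 FPKM with the control vector and at 17.5 and 17.9 FPKM with Cre. Its knockouts matched control replicates 2 and 3, with control replicate 1 alone low (log2 change 0.65 ± 0.61, SE; adjusted p = 0.523). Slc15a3, a peptide and histidine transporter of endolysosomes in phagocytes, had the opposite order: 2.59 FPKM in control replicate 1, 0.224 and 0.374 FPKM in the other controls, and 3.02 and 3.42 FPKM in the knockouts (log2 change 1.21 ± 0.50, SE; adjusted p = 0.187). The neutrophil marker sums given above were also high in control replicate 1 and in the knockouts, and their part in these values was not tested.

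**Figure D3:**
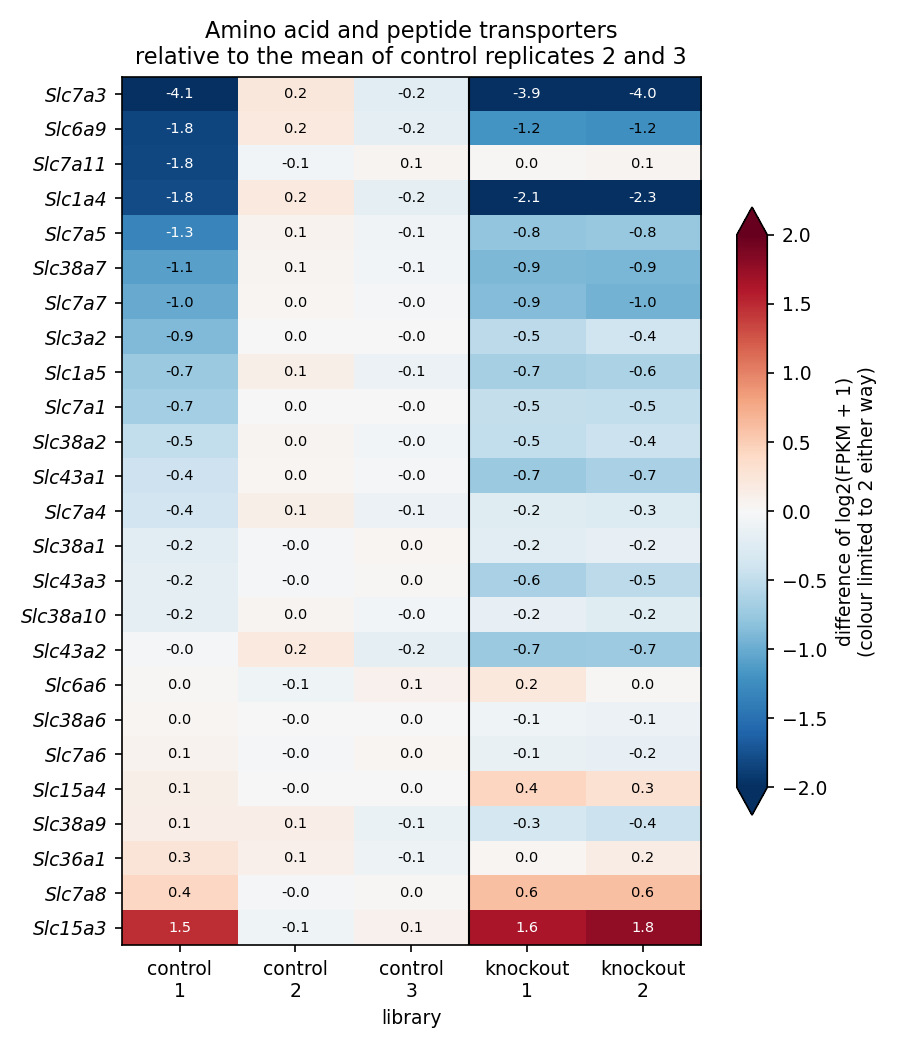
Difference of log2(FPKM + 1) from the mean of control replicates 2 and 3 for the 25 amino acid and peptide transporters (rows) in the 5 libraries (columns), blue lower and red higher, with the colour limited to 2 either way. Control replicate 1 is at -4.1 for Slc7a3 and -1.8 for Slc6a9, Slc7a11 and Slc1a4, and Slc7a11 is the one of these 4 whose knockouts are near 0.

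Without control replicate 1, 13 of the 25 amino acid and peptide transporters fell and 3 rose, beside 18% and 11.9% of all genes tested in that fit. One of the 13 was Slc7a3, which reached the level through control replicates 2 and 3 alone and so had to differ from the knockouts there. Slc1a4 (log2 change -2.23), Slc6a9 (-1.21) and Slc7a5 (-0.77) were among those that fell, and Slc15a3 (1.70) rose; these had been picked for a control replicate 1 that stood apart, so their values in this fit are a description. Slc3a2 (-0.46, limma adjusted p = 0.016) and Slc1a5 (-0.64, adjusted p = 0.018) fell too, and Slc7a8, the neutral amino acid transporter LAT2, rose (0.60, adjusted p = 0.00753). In each, control replicate 1 differed from the other controls toward the knockouts (-0.88, -0.75 and 0.41 in log2). Leaving that library out therefore favoured these calls, and they are a description too. Slc7a11 did not pass in that fit (0.04, adjusted p = 0.674). These calls rest on 2 controls, and 1 library decides them.

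Summed over the 25 genes, the class came to 916 FPKM in control replicate 1, 1498 and 1424 FPKM in the other controls, and 1035 and 1062 FPKM with Cre. The genes of the amino acid response were lowest among the controls in the same library. Asns, asparagine synthetase, stood at 65.3, 260 and 240 FPKM with the control vector and at 67.5 and 82.4 FPKM with Cre. Atf4, the transcription factor gene of this response, stood at 643, 1050 and 1047 FPKM against 664 and 757 FPKM, and its target Trib3 at 16.2, 47.2 and 29.4 against 13.8 and 14.7 FPKM. Ddit3 (CHOP) resembled Slc7a11, at 55.9, 101 and 97.6 FPKM with the control vector and 107 and 112 FPKM with Cre. None of these 4 genes was called with all libraries. The part of this response in the transporter values was not tested. Of 4 tested genes of amino acid sensing at the lysosome (Rraga, Rragb, Rragc and Flcn, with 5 of 10 listed symbols found) none was called either.

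ATF4 with a C/EBP partner binds an element whose core letters are TGATGCAA. This word was searched on both strands of RefSeq promoters (GRCm38.p6, 250 bases before to 50 after each start), which were held for 129 of the 163 genes. It was found in 3 of them (2.33%), beside 279 of 27025 genes (1.03%). The 3 were Slc7a11, Slc1a4 and Slc7a7, all of them among the amino acid transporters that were low in control replicate 1. Promoters were held for 17 of the 25 amino acid and peptide transporters. They were also held for 6 of the 8 genes lower in control replicate 1 by at least 1 in log2. Of these 6, 3 had the word. Those 8 genes were picked by their values here, so this is a description. The looser word TGATGNAA, which includes the first, was found in 5 of 129 (3.88%, beside 4.51% of all genes), adding Slc9a9 and Slc26a10. The promoters of the 3 are shown because the word lies close to the start in each. They run 5′ to 3′ from 150 bases before to 10 bases after the start, with matches of the first word in capitals.
Slc7a11: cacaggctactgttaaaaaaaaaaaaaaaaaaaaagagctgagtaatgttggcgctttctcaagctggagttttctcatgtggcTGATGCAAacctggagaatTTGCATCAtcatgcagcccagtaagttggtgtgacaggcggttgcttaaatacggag
Slc1a4: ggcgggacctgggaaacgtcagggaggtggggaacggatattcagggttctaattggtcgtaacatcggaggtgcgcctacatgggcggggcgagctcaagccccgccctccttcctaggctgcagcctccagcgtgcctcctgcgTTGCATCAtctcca
Slc7a7: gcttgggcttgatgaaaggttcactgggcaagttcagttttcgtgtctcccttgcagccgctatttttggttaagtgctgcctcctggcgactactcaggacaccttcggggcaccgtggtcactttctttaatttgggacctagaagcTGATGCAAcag

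These windows lie on the minus strand at chr3:50443604-50443763 (Slc7a11), chr11:20332704-20332863 (Slc1a4) and chr14:54417935-54418094 (Slc7a7). Slc7a11 holds the word 2 times, in opposite orientations, with first letters 66 and 47 bases before the start. In Slc1a4 and Slc7a7 a single match crosses the start. A match of letters is a description and does not show binding, and the data hold no measurement of it.

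The class of sugar carriers, in which family number also places the multivitamin transporter Slc5a6, had no called gene among 8 (median log2 change -0.01), and their summed FPKM was 59.7 in the controls and 54.3 in the knockouts. Slc2a3, the high-affinity glucose transporter GLUT3, stood at 15.3, 21.1 and 17.7 FPKM with the control vector and at 14.9 and 13.9 FPKM with Cre. Both knockout values lay just below the lowest control (log2 change -0.30 ± 0.15, SE; adjusted p = 0.248). Of 3 tested genes of the glucose response, Arrdc4, an arrestin-type gene induced by glucose, fell from 9.20 ± 1.05 to 5.25 ± 0.190 FPKM (adjusted p = 0.0323). The other tested genes, Txnip and Mlxip, were not called. Txnip stood at 170, 81.4 and 77.9 FPKM with the control vector and at 142 and 121 FPKM with Cre (log2 change 0.35). Mlxip had 15.3 ± 1.73 and 13.9 ± 0.863 FPKM (log2 change -0.13).

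Of 16 carriers of organic acids, amines and organic ions, 2 fell and none rose, beside 5.97% and 3.82% of all genes (class median -0.06). Slc22a3, the organic cation transporter OCT3 that clears monoamines, was the most abundant of them. It stood at 111, 109 and 100.2 FPKM with the control vector and at 74.7 and 64.0 FPKM with Cre, 1.54-fold lower (log2 change -0.62 ± 0.10, SE; adjusted p = 0.0302). Its exons overlap those of Plg on the opposite strand. Slc16a10, an aromatic amino acid transporter of the monocarboxylate family, fell from 27.8 ± 1.24 to 18.8 ± 0.232 FPKM (adjusted p = 0.0219).

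Neither of the lactate transporters of that family was called, and the difference between them was not tested. Slc16a3 (MCT4), which exports lactate, stood at 54.5, 58.9 and 33.6 FPKM with the control vector and at 23.5 and 27.7 FPKM with Cre. Its groups did not overlap, and the adjusted p was 0.0991. Over the fits that each leave out 1 library it ran from 0.0476 (without control replicate 3) to 0.433 (without knockout replicate 1), and only the first passed the threshold. Slc16a1 (MCT1), which carries lactate in either direction, stood at 76.5 ± 1.62 and 81.1 ± 3.44 FPKM (adjusted p = 0.487). Of their ancillary proteins, Emb (embigin) rose from 335 ± 14.04 to 530.5 ± 16.3 FPKM (adjusted p = 0.0203), and Bsg (basigin) had 426 ± 37.3 and 342 ± 1.71 FPKM (adjusted p = 0.127). Nptn, the other one listed, stood at 122 ± 8.70 and 133 ± 0.713 FPKM.

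Carriers of nucleosides, nucleotide sugars and vitamins held changes in both directions (median 0.10). Of 29, 2 rose and 3 fell (6.9% and 10.3%, beside 3.82% and 5.97% of all genes). Slc28a2, a sodium-coupled importer of purine nucleosides, was among the largest rises. It stood at 1.74, 1.41 and 1.07 FPKM with the control vector and at 3.85 and 4.32 FPKM with Cre, 2.90-fold higher (log2 change 1.09 ± 0.16, SE; adjusted p = 0.0249). The equilibrative transporter Slc29a1, which carries nucleosides down their gradient, was far more abundant and was not called (62.9 ± 14.5 and 54.9 ± 1.85 FPKM; adjusted p = 0.638).

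Family SLC35 brings nucleotide sugars into the Golgi and endoplasmic reticulum, and 19 of its genes were present. Slc35d3, a gene needed for the dense granules of platelets, fell from 17.5, 26.5 and 22.2 FPKM in the controls to 9.04 and 7.41 FPKM in the knockouts, 2.68-fold lower (log2 change -1.31 ± 0.19, SE; adjusted p = 0.0246). Slc35b4, a carrier of UDP-xylose and UDP-N-acetylglucosamine, fell from 12.1 ± 0.756 to 7.36 ± 0.517 FPKM (adjusted p = 0.0237). Slc35e1, whose substrate is not settled, rose from 21.2 ± 1.74 to 32.5 ± 0.160 FPKM (adjusted p = 0.0262). The family therefore held 1 rise and 2 falls (5.26% and 10.5%, beside 3.82% and 5.97% of all genes), with a median of 0.15. The megakaryocyte markers, another platelet-linked list, had none of 4 tested genes called and summed to 70.4, 53.1 and 40.4 FPKM with the control vector and 41.2 and 33.2 FPKM with Cre. Slc35c1, the GDP-fucose carrier of the Golgi, lay just beyond the threshold, at 28.4 ± 2.04 and 37.9 ± 0.490 FPKM (adjusted p = 0.0508). Slc46a3, a lysosomal relative of the folate transporter, fell from 5.55 ± 0.367 to 3.37 ± 0.0374 FPKM (adjusted p = 0.0327).

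Of 6 choline and fatty acid carriers, 1 rose and 3 fell, beside 3.82% and 5.97% of all genes (class median -0.69). All 3 genes of the choline transporter-like family SLC44 were called. Slc44a1, the main choline transporter of the plasma membrane and mitochondria, stood at 4.46, 4.59 and 4.63 FPKM with the control vector and at 1.20 and 1.11 FPKM with Cre, 3.94-fold lower (log2 change -1.37 ± 0.10, SE; adjusted p = 0.0077). The 3 controls were nearly equal, control replicate 1 included. Slc44a2, which carries a neutrophil antigen of human blood groups and is the abundant one of the family, stood at 92.2, 103 and 102 FPKM against 61.4 and 60.1 FPKM (log2 change -0.70 ± 0.08, SE; adjusted p = 0.0163).

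The remaining choline-type gene went the other way at a low level. Slc44a4, a carrier of thiamine pyrophosphate, stood at 1.55, 0.978 and 1.19 FPKM with the control vector and at 2.68 and 3.05 FPKM with Cre (log2 change 0.79 ± 0.16, SE; adjusted p = 0.0448). Slc27a1, the fatty acid transport protein FATP1, stood at 8.50, 9.12 and 6.31 FPKM against 3.20 and 3.34 FPKM, 2.44-fold lower (log2 change -1.06 ± 0.16, SE; adjusted p = 0.0276). Summed over the 6 genes, the class went from 121 FPKM in the controls to 76.9 FPKM in the knockouts, and Slc44a2 makes up most of that sum.

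Carriers of inorganic ions held the largest called fall and, on the log2(FPKM + 1) scale, the largest called rise. Of 23 genes, 3 rose and 1 fell (13% and 4.35%, beside 3.82% and 5.97% of all genes), with a median of -0.14. Slc9a9, a sodium-proton exchanger of endosomes (NHE9), stood at 15.5, 13.5 and 12.3 FPKM with the control vector and at 1.59 and 1.37 FPKM with Cre. That is 9.30-fold lower (log2 change -2.57 ± 0.13, SE; adjusted p = 0.00362), with every control far above both knockouts. None of the other exchangers of family SLC9 was called.

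Slc24a6 was the largest called rise on the log2(FPKM + 1) scale; by ratio of mean FPKM it was Slc28a2. It has the current symbol Slc8b1 and encodes NCLX, the exchanger that releases calcium from mitochondria in return for sodium. It stood at 12.7, 10.7 and 11.3 FPKM with the control vector and at 27.7 and 28.05 FPKM with Cre, 2.41-fold higher (log2 change 1.20 ± 0.09, SE; adjusted p = 0.00808). Slc4a2 (AE2), which exchanges chloride for bicarbonate, stood at 11.2, 10.7 and 10.5 FPKM against 18.7 and 17.8 FPKM (log2 change 0.70 ± 0.08, SE; adjusted p = 0.0149). The phosphate importer Slc20a1 (PiT1) rose from 37.8 ± 3.86 to 54.5 ± 0.704 FPKM (adjusted p = 0.0447). Slc8a1, a sodium-calcium exchanger of the plasma membrane, had scattered controls at 2.71, 1.70 and 0.134 FPKM and knockouts at 0.0619 and 0.0647 FPKM (log2 change -1.08 ± 0.53, SE; adjusted p = 0.242).

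Among 20 metal and haem carriers, 3 fell and none rose, beside 5.97% and 3.82% of all genes (class median 0.07). The 3 that fell were from the zinc families SLC30 (6 genes) and SLC39 (11 genes), which make up most of the class. Slc30a4, which loads zinc into vesicles, stood at 7.88, 10.3 and 11.3 FPKM with the control vector and at 5.36 and 5.17 FPKM with Cre (log2 change -0.78 ± 0.16, SE; adjusted p = 0.0475). Slc30a9, a zinc transporter of mitochondria, fell from 25.7 ± 2.996 to 15.2 ± 0.0606 FPKM (adjusted p = 0.0295). Slc39a10, a plasma membrane zinc importer that lymphoid and myeloid cells need, stood at 21.4, 21.5 and 24.6 FPKM against 13.9 and 13.5 FPKM (log2 change -0.68 ± 0.09, SE; adjusted p = 0.0221). A fall was therefore seen in 2 of 6 SLC30 genes and in 1 of 11 SLC39 genes, sets too small to weigh against the share of all genes.

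The other zinc genes were not called. Slc39a7, which releases zinc from the endoplasmic reticulum, was the most abundant metal carrier, at 132 ± 9.13 and 141 ± 1.32 FPKM (adjusted p = 0.505). Slc39a8, which imports zinc and manganese, stood at 7.52, 8.24 and 9.43 FPKM with the control vector and 11.6 and 12.1 FPKM with Cre (adjusted p = 0.0686). Slc30a1, the plasma membrane zinc exporter, stood at 2.36, 1.96 and 2.56 FPKM against 3.93 and 3.54 FPKM (adjusted p = 0.0685). Mtf1, the zinc-sensing transcription factor gene, rose from 7.28 ± 0.0336 to 11.4 ± 0.668 FPKM (adjusted p = 0.0225). The metallothionein genes Mt1 (985 ± 172 and 1361 ± 53.8 FPKM) and Mt2 (566 ± 140 and 699 ± 14.7 FPKM) were not called.

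Copper and haem carriers were also not called. Slc31a2 (CTR2), a copper carrier of endolysosomes, had 6.09 ± 2.65 FPKM with the control vector (SD, n = 3) and 12.4 ± 0.264 FPKM with Cre (SD, n = 2; adjusted p = 0.107). It rose in the fit without control replicate 1 (log2 change 1.27, adjusted p = 0.00977). That library lay 0.85 in log2 above the other controls, toward the knockouts, so leaving it out favoured this call. Slc48a1 (HRG1), which releases haem from endolysosomes, had a log2 change of 0.81 and an adjusted p of 0.116.

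**Figure D4:**
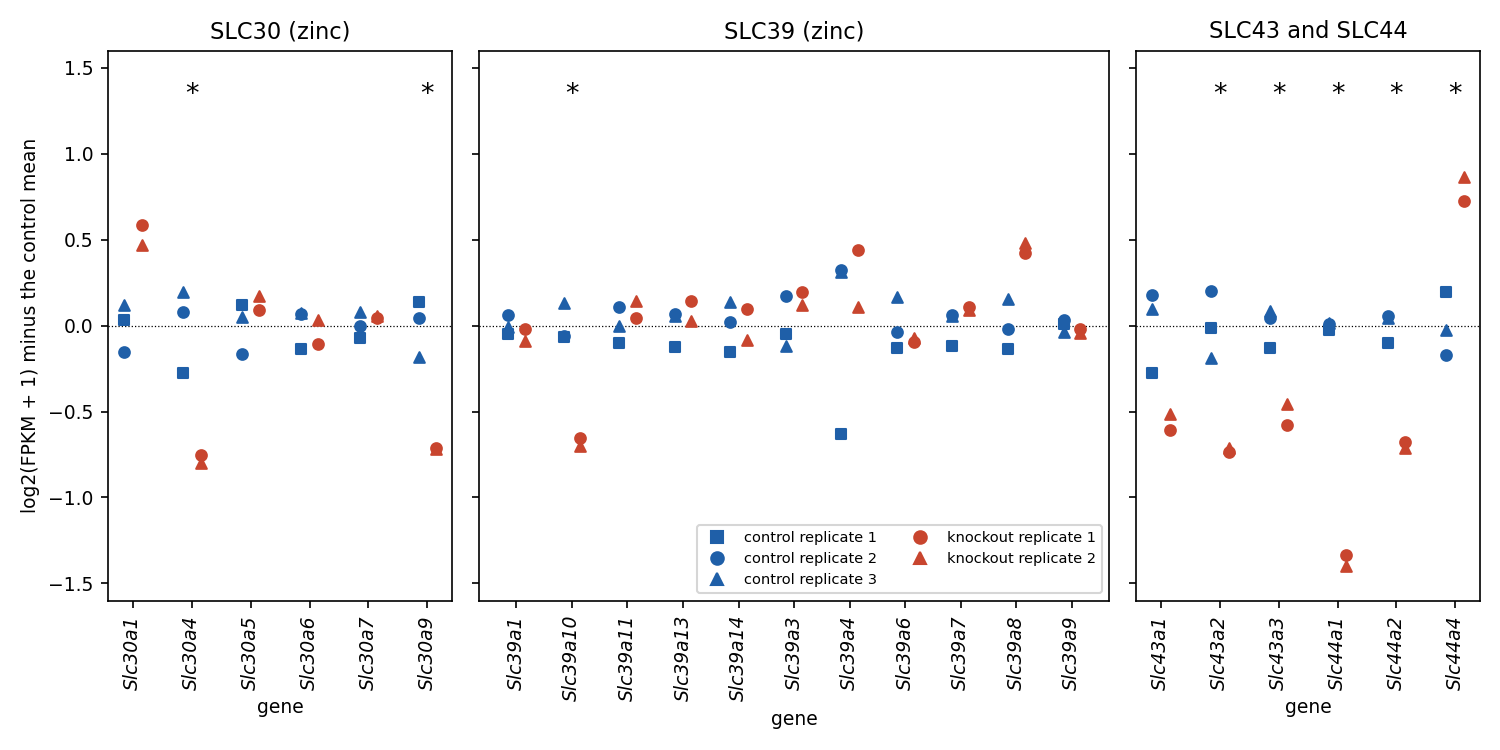
log2(FPKM + 1) minus the mean of the controls (y axis) for each gene (x axis) of the zinc families SLC30 and SLC39 and of families SLC43 and SLC44, with 1 point per library (controls blue, knockouts red) and asterisks on called genes. Slc30a4, Slc30a9 and Slc39a10 fall below their controls while most of their relatives stay near 0, and Slc44a1 and Slc44a2 lie on the other side of 0 from Slc44a4.

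Mitochondrial carriers were the largest and most abundant family, with 32 genes and 35.4% of the summed FPKM of the 163. Of the 32, 2 fell (6.25%) and none rose, beside 5.97% and 3.82% of all genes (class median -0.04). Slc25a23, a calcium-regulated carrier of ATP-magnesium and phosphate, stood at 6.18, 10.1 and 9.79 FPKM with the control vector and at 3.34 and 3.05 FPKM with Cre, 2.72-fold lower (log2 change -1.18 ± 0.22, SE; adjusted p = 0.0397). Slc25a36, a carrier of pyrimidine nucleotides, fell from 14.8 ± 1.37 to 10.1 ± 0.141 FPKM (adjusted p = 0.0439). Neither belongs to the abundant core of the family.

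None of the genes of that core was called. The phosphate carrier Slc25a3 had the highest mean of the 163, at 413, 535 and 470 FPKM with the control vector and 548 and 510 FPKM with Cre. The ADP/ATP carriers Slc25a5 and Slc25a4 stood at 241 ± 21.4 and 255 ± 5.26 FPKM and at 164 ± 19.4 and 158 ± 6.38 FPKM; they are close relatives, so reads may be shared between them. Slc25a1, the citrate carrier, stood at 105 ± 12.8 and 107 ± 4.68 FPKM. Slc25a39, linked to glutathione import into mitochondria, stood at 93.5, 181 and 166 FPKM with the control vector and at 142 and 148 FPKM with Cre, again with control replicate 1 lowest. Together with Slc3a2, Slc7a5, Slc1a5, Slc38a1 and Slc39a7 these 5 made up the 10 most abundant genes, which held 43.3% of the summed FPKM. None of these abundant genes was called, and their log2 changes ran from -0.40 to 0.17.

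The prefix is borne by 4 genes that are no transporters. Slc9a3r1 (NHERF1), a scaffold that ties transporters to the cytoskeleton, rose from 44.5, 42.4 and 42.2 FPKM in the controls to 61.8 and 58.4 FPKM in the knockouts (log2 change 0.47 ± 0.07, SE; adjusted p = 0.0257). The others, Slc9a3r2, Slc4a1ap and Slc7a6os, were not called.

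Transporters that belong to solute carrier families under other names were counted from a separate list. Of 28 tested, 3 rose and 1 fell, beside 3.82% and 5.97% of all genes tested. Slco4a1, an organic anion transporter, rose from 10.2 ± 1.49 to 20.7 ± 2.56 FPKM (adjusted p = 0.0256). Rhag, the ammonia channel of red cells, rose from 0.264 ± 0.158 to 1.55 ± 0.308 FPKM (adjusted p = 0.0376). It reached 1 FPKM in the knockout libraries alone, so its knockouts had to lie above its controls and the call is no support. Of 6 erythroid markers tested 2 rose, Alas2 and Klf1. Mfsd5, a molybdate transporter, rose from 27.4 ± 0.952 to 36.4 ± 2.66 FPKM (adjusted p = 0.0471), and Spns2, the exporter of sphingosine 1-phosphate, fell from 27.7 ± 2.73 to 18.4 ± 0.576 FPKM (adjusted p = 0.0379).

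Just inside the level rule were Slc25a35, Slc7a4 and Slc18a1, whose second highest values were 1.004, 1.004 and 1.09 FPKM, none of them called; just outside it and therefore not tested were Slc6a8, Slc30a2 and Slc32a1, at 0.980, 0.976 and 0.901 FPKM. In all, 8 genes reached 1 FPKM in 2 or more controls and in neither knockout library: Slc7a3, Slc7a4, Slc8a1, Slc9a5, Slc18a1, Slc22a21, Slc25a35 and Slc27a2. None of these 8 was called with all libraries, and none of the 163 passed through the knockouts alone. Of the 174 below the level, 16 were listed at 0 in every library, and the highest single value was 1.54 FPKM, for Slc30a2 in knockout replicate 1. Exons of 45 of the 163 genes overlap a gene on the opposite strand in GENCODE M21, among them 8 called ones (Slc4a2, Slc20a1, Slc22a3, Slc25a23, Slc30a4, Slc35b4, Slc43a2 and Slc44a1). Whether the counting used strand is not given in the sources used here, and their values may therefore hold reads of the overlapping gene.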

How the data were processed

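RNA sequencing values of 5 libraries were used, 3 control and 2 knockout, grouped by their titles. The authors deposited FPKM, 1 value per Ensembl gene and library; per the submitters' processing notes the tools were CASAVA 1.8.2, GSNAP, SAMtools and Cuffdiff with build mm9. How reads with several matches were treated, and which annotation was used, is not given in the sources used here. Each file held 31626 genes; 16 with the value 999999999 in a library, which is no FPKM, were left out. Read depth is unknown; the worth of 1 read, from the commonest ratio of low values, was 0.979 to 1.02 of that in control replicate 1.

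The 11780 genes that reached 1 FPKM in 2 or more libraries entered a limma fit (limma 3.58.1, R 4.3.3) of log2(FPKM + 1) with a mean-variance trend. P-values were adjusted by Benjamini-Hochberg over all of them, and 0.05 was the threshold for a call. A positive log2 change is higher in the knockouts; the scale understates changes of low genes; fold values are ratios of mean FPKM. The fit was tested on 20 simulated sets with independent noise and 200 changed genes each. It recovered 64.2% of changes of 1 in log2 and 89.6% of changes of 2, and 4.91% of calls were false. No simulated library stood apart over many genes as control replicate 1 does here, so these shares may not hold for these data. Whether the replicate numbers pair the libraries is not stated in the labels, and the fit used no pairing.

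The genes, the substrate classes (by family number), the other lists and the tests were chosen with earlier results of these data known. Named genes are all called ones, the 10 with the highest mean, 12 fixed transporters, and those outside the control range by at least 1 in log2 change that were not called; the others named were chosen after their values were seen. Current symbols and overlaps come from GENCODE M21 (162 of 163 IDs matched), promoters from RefSeq.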

Additional observations from a re-analysis of the deposited data

How the results depend on the processing

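With every library the calls were 7 genes that rose and 16 that fell. They came to 3 and 5 with no filter on low values, where more genes were tested (1.05% and 1.15% of all), and to 17 and 23 with an adjusted p under 0.1 (8.67% and 12% of all). Over the 5 fits that each leave out 1 library, the genes that rose ranged from 0 to 21 and those that fell from 0 to 38, and the median log2 change of the 163 from -0.06 to -0.01. The median was 0.0037 after median-ratio scaling and 0.0081 after quantile normalization, so its sign carries nothing. With the replicate number as a block, 0 rose and 1 fell (0.102% and 0.365% of all genes). The numbers are no known pairing, and the deviations of same-numbered libraries correlated at 0.037 and 0.012. With 2 knockout libraries the deviations of one mirror those of the other, so these correlations cannot decide on pairing. The log2 change of Mll1 ran from -0.51 to -0.29 over the fits without 1 library. None of the 23 called genes changed sign under any alternative run. In each of them both knockouts lay on the same side of every control, so dropping a library could not reverse the sign. Neither could the replicate block or another pseudocount, filter or trend setting. The kept sign in those runs is therefore no support. Of the 23 calls, 20 were lost without control replicate 2, 18 without control replicate 3 and 0 without control replicate 1. The precision is limited by 2 knockout libraries, and no read counts were available to set an interval on single values.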
